A study of Mus musculus with 35 samples.

Results

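The genes described here are 10 parts of the Notch pathway, taken by name from the 21350 genes of the deposited table, where all 10 were found. They are the ligand genes Jag1 and Dll1, the receptor genes Notch1, Notch2 and Notch3, and the repressor genes Hes1, Hes5, Hey1, Hey2 and Heyl. Poly-A selected RNA was sequenced from infected mouse cells kept in iCD1 reprogramming medium and sampled at days 1, 6 and 14, with factors given by the labels as ODR, OA or OB. ODR and OB cells were also given BMP4, a growth factor, at 10 ng/ml from the change of medium to day 6. All other infected cells in the tests had no BMP4. The labels do not spell out the combinations and name neither the starting cells nor the vector. The series' own title and design text name Oct4 (Pou5f1), the demethylase Kdm2b and a variant Polycomb complex. Combinations labelled ODDR and ODB at day 9, an embryonic stem cell library (mESC) and an embryonic fibroblast library (MEF) had 1 library each and entered no test.

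Notch signalling passes between touching cells. A ligand such as Jag1 or Dll1 on one cell binds a Notch receptor on its neighbour, the receptor is cut by Adam10 and then by gamma-secretase, and its freed inner part enters the nucleus. There it joins the DNA-binding protein Rbpj and a Mastermind coactivator and switches on target genes, among them the Hes and Hey genes and Nrarp. Hes and Hey proteins are basic helix-loop-helix repressors that hold down genes such as the proneural factors, so the pathway is known for holding neural progenitors back from differentiation and for timing somite formation in the presomitic mesoderm. Hes1 and Hey1 are also known to respond to BMP in some cell types.

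Values are normalised tag counts per gene, a score in whole numbers that the authors made nearly equal in total between libraries, so the depth of each library is unknown. Kdm2b was at the common ceiling of 18690 in the OB libraries of days 1 and 6 without BMP4, and was 4626, 6246 and 4220 in the OB libraries of day 14. Kdm2a was at the ceiling in the OA libraries with 2 exceptions. It was 9294 in OA day 1 replicate 2, and 721 in replicate 2 of day 14, a library labelled OA that went against its label. Pou5f1 was 7086 in OB day 14 replicate 1, the library with the highest Hes1 and Hes5 of that group, and at the ceiling in every other infected library. There were 2 pairs of columns identical at all 21350 genes. ODR day 6 replicate 3 equalled ODR with BMP4 replicate 2, and this shared library was left out of both groups. That leaves the ODR arm of day 6 with 2 untreated libraries and 1 treated library. ODDR with BMP4 at day 9 equalled ODB with BMP4 at day 9. Summed embryonic stem cell markers reached at most 67 in any infected library, against 14095 in mESC, and summed fibroblast markers were 47535 in MEF.

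Differences are log2 fold changes of value + 1 with their SE, from limma fitted to 13860 genes in 27 libraries. Calls were made below 0.05 after Benjamini-Hochberg adjustment of p, taken over the 13860 genes of a comparison. Of the 10 genes, 8 passed the filter of a value of at least 10 in 2 or more libraries. Hes5 and Heyl did not pass and are given by value alone. No level is compared between genes, since the labels do not say how these values treat gene length.

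The upstream DNA of the Hes and Hey genes is shown because Rbpj binds there in the canonical pathway. RefSeq promoter windows on build GRCm38.p6 were matched for 7 of the 10 genes, in 8 windows since Dll1 has 2. The core letters of the Rbpj site, TGGGAA, were searched on both strands in the 250 bases before each start, where the other strand reads TTCCCA. Below, they are in capitals in the windows of Hes5 (chr4:154960673-154960922, plus strand) and Hey2 (chr10:30842784-30843033, minus strand). The window of the receptor gene Notch3 (chr17:32166891-32167140, minus strand) is given beside them as one without these letters. All are written 5′ to 3′ on the gene's strand.
Hes5: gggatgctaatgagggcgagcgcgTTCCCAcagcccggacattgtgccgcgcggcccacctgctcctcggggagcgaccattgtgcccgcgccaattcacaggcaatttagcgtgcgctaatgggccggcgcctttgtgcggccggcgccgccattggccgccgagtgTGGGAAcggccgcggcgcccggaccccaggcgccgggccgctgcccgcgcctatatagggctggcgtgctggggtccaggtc
Hey2: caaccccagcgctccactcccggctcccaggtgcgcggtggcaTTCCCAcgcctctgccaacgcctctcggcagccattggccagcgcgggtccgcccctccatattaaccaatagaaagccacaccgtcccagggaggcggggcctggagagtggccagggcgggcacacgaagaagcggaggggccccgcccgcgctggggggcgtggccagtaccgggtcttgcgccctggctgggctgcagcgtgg
Notch3: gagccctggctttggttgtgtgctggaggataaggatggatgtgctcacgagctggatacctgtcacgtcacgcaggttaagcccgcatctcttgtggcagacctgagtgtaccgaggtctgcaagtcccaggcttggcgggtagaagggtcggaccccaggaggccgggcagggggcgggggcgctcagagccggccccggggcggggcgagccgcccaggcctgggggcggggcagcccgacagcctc
Hes5 held the core on its own strand, beginning 82 bases before the start, and on the opposite strand at 226 bases. Hey2 held it on the opposite strand at 207 bases. The letters were not in the windows of Notch1, Notch2, Notch3, Jag1 or Dll1. Of 32851 RefSeq windows of the same length, 7094 (21.6%) held the core, so a match is frequent and describes letters only. Hes1, Hey1 and Heyl are named without a window.

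**Figure D1:**
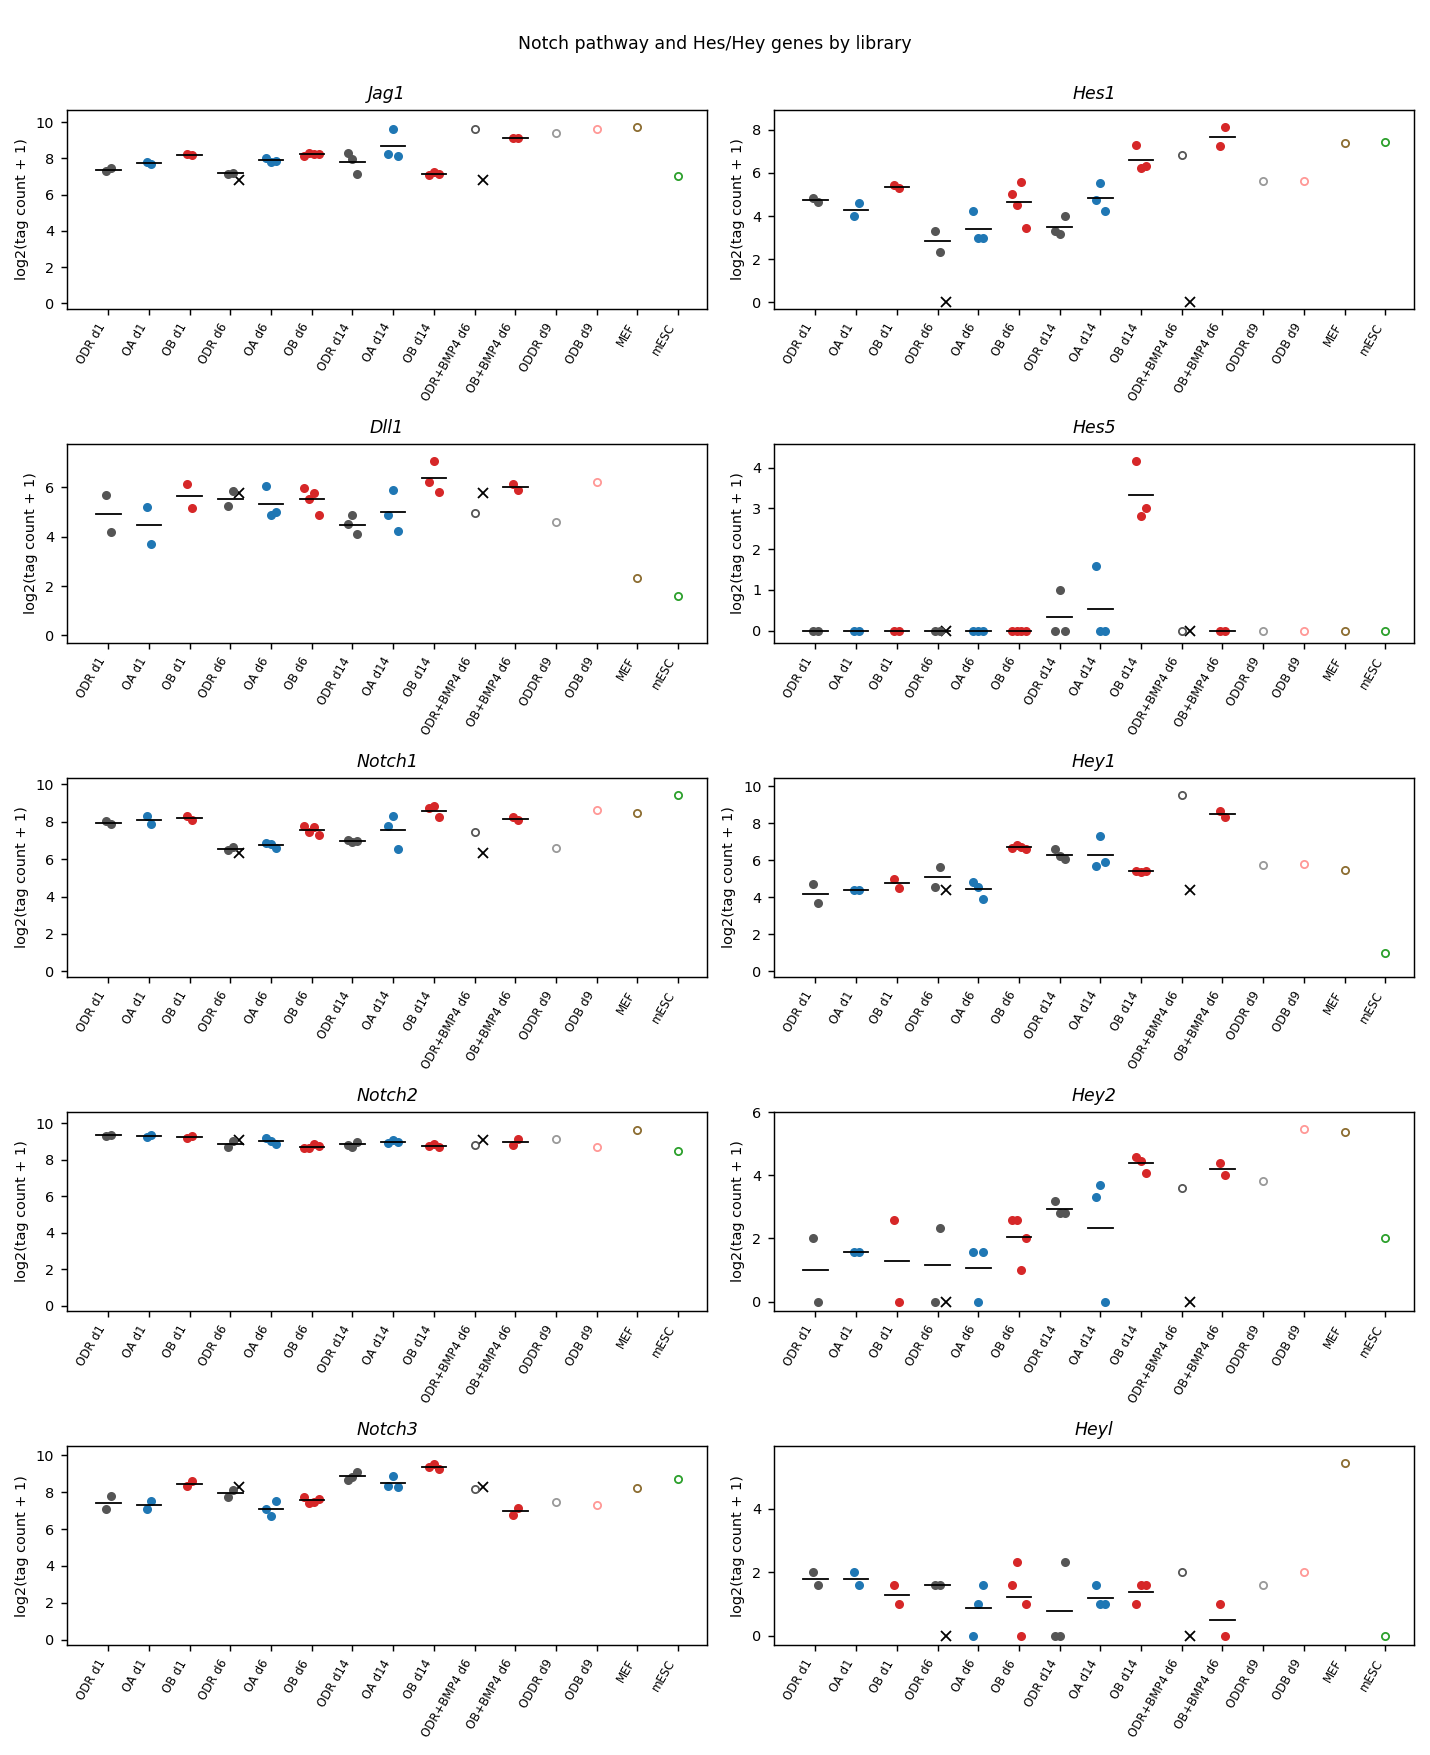
Level of each of the 10 genes as log2(tag count + 1) by library, with groups along the horizontal axis (filled points, replicates with a bar at their mean; open points, groups with 1 library; crosses, the library held under both day 6 ODR labels and left out of the fit). The library held under both day 9 labels with BMP4 is not drawn. Hes5 sat at 0 except at day 14, and Hey1 reached 724 in the ODR library with BMP4.

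The first question was how the OB cells differed from ODR cells at each day. At day 14 the OB cells held more of the ligand Dll1, the receptor Notch1 and the repressor Hes1, and less Hey1. Of the 8 genes tested, 3 rose and 1 fell at day 14, with a median difference of 0.99 on the log2 scale, while 54.7% of all genes were called in that comparison and their median difference was 0.01. At day 6, 4 rose and 0 fell (median 0.93, against -0.01 for all genes), where 10.5% of all genes were called. At day 1 limma called 0 of the 8 (median 0.58) and 0.880% of all genes. An unadjusted p below 0.05 was found for 2 of the 8, beside 1287 of all 13860 genes. Notch3 was nearest to the threshold, at 136 and 218 in ODR and 320 and 388 in OB, a difference of 1.03 ± 0.27 (adjusted p = 0.0913). In such bulk samples fewer cells of a type and less RNA per cell cannot be told apart.

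Jag1 (chromosome 2, 137081456 to 137116644, minus strand), the ligand of the Serrate type, was 140 and 146 in ODR at day 6 and 284, 316, 303 and 298 in OB. All 4 OB libraries were higher, and Jag1 rose by 1.06 ± 0.30 (adjusted p = 0.0318). At day 14 it was 314, 248 and 142 in ODR and 136, 150 and 140 in OB, so the order of the groups had turned but the lowest ODR library lay among the OB values (-0.65 ± 0.29, adjusted p = 0.0646). The OB minus ODR difference of day 14 was lower than that of day 6 by 1.71 ± 0.42 on the log2 scale (adjusted p = 0.00413 for the interaction). Over the 8 genes this interaction was called upward for 1 and downward for 2, where 35.4% of all genes were called. Dll1 (chromosome 17, 15367354 to 15376872, minus strand), a Delta type ligand, was 37 and 56 in ODR and 61, 45, 53 and 28 in OB at day 6. These values overlapped throughout. At day 14 it was 22, 28 and 16 in ODR and 73, 132 and 55 in OB. Here every OB library was above every ODR library, and Dll1 rose by 1.87 ± 0.51 (adjusted p = 0.00498). The interaction for Dll1 was 1.89 ± 0.75 (adjusted p = 0.0586).

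Notch1 (chromosome 2, 26457903 to 26516663, minus strand), a receptor with broad roles in stem and progenitor cells, was 88 and 100 in ODR and 216, 172, 208 and 157 in OB at day 6. The groups did not overlap, and Notch1 rose by 0.98 ± 0.30 (adjusted p = 0.0456). At day 14 it was 128, 122 and 127 in ODR and 423, 452 and 303 in OB, a rise of 1.62 ± 0.29 (adjusted p = 0.000115). The receptor Notch3 (chromosome 17, 32120820 to 32166852, minus strand), known from vascular smooth muscle, did not pass at either of these days. At day 14 it was 410, 448 and 540 in ODR and 656, 746 and 607 in OB (0.53 ± 0.22, adjusted p = 0.0526), groups that did not overlap. There it was called in a fit of only these groups (adjusted p = 0.0289). It was also called with the shared library kept under both labels (adjusted p = 0.0474). At day 6 the difference was -0.37, and the change of the difference from day 6 to day 14 was called upward (0.90 ± 0.32, adjusted p = 0.0381). Notch2 (chromosome 3, 98013527 to 98150361, plus strand), a widely expressed receptor, varied least among the 3 receptors across groups and differed by -0.06 ± 0.11 at day 14 (adjusted p = 0.669).

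Hes1 (chromosome 16, 30064384 to 30067796, plus strand), a repressor that cycles in progenitor cells, was 9 and 4 in ODR at day 6 and 32, 22, 47 and 10 in OB. The lowest OB library stood just above the higher ODR library, and Hes1 rose by 1.83 ± 0.53 (adjusted p = 0.0324). At day 14 Hes1 was 9, 8 and 15 in ODR and 155, 73 and 79 in OB, far apart, with a rise of 3.11 ± 0.50 (adjusted p = 3.98e-05), or 2.77 ± 0.54 without OB replicate 1 (adjusted p = 0.000457). Hey1 (chromosome 3, 8663359 to 8667256, minus strand), a repressor of cardiovascular and bone-forming cells, was 23 and 49 in ODR and 100, 113, 105 and 96 in OB at day 6. All 4 OB values were close together and above both ODR values, a rise of 1.59 ± 0.38 (adjusted p = 0.0118). At day 14 the order had turned, with 95, 75 and 66 in ODR and 42, 40 and 42 in OB, and Hey1 fell by 0.90 ± 0.36 on the log2 scale (adjusted p = 0.0428). The change between those days was itself called (-2.49 ± 0.53, adjusted p = 0.00145).

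Hey2 (chromosome 10, 30832359 to 30842801, minus strand), a relative of Hey1 with roles in heart and arteries, was 8, 6 and 6 in ODR and 23, 21 and 16 in OB at day 14. The groups did not overlap, but the gene missed the threshold (1.45 ± 0.87, adjusted p = 0.167, and 0.00182 in a fit of only these groups). Hes5 (chromosome 4, 154960923 to 154962371, plus strand), a repressor typical of neural progenitors, was listed at 0 in every library of days 1 and 6. At day 14 it was 0, 1 and 0 in ODR, 2, 0 and 0 in OA, and 17, 6 and 7 in OB, with all 3 OB libraries above the others and no test, since it was below the filter. Heyl (chromosome 4, 123233556 to 123249875, plus strand), the remaining Hey gene, stayed between 0 and 4 in every infected library.

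The day 6 rises lay nearer to the threshold, and lost their calls more often, than the day 14 rises of Dll1, Notch1 and Hes1. Those 3 kept their calls in all 9 alternative settings and in all 27 fits that left out 1 library. At day 6, Jag1 lost its call without any single one of the 6 ODR and OB libraries of that day (highest adjusted p = 0.175, without ODR replicate 1). Among these fits Hey1 lost it without ODR replicate 1 (1.06 ± 0.46, adjusted p = 0.232), and Hes1 without ODR replicate 1 or 2 or OB replicate 1 or 3 (highest adjusted p = 0.34, without ODR replicate 2). Notch1 at day 6 lost its call in 21 of the 27 fits (0.89 ± 0.40 without ODR replicate 1). Some of these left out a library of another group, such as OA day 6 replicate 1 (adjusted p = 0.0543). There the Notch1 difference stayed at 0.98 and only the pooled spread changed. The shared library left out of ODR had 111 for Jag1, 80 for Notch1, 0 for Hes1 and 20 for Hey1, each below the other ODR libraries. Kept as ODR, this library left all 4 day 6 calls in place. With it kept under both labels Jag1, Hes1 and Hey1 were not called at day 6 (adjusted p = 0.0784, 0.0834 and 0.0998). With it kept as ODR with BMP4 all 4 day 6 calls were lost (adjusted p = 0.22 for Jag1, 0.0815 for Notch1, 0.36 for Hes1 and 0.271 for Hey1). The 4 differences were unchanged there and their SE was larger, for Hey1 0.81 in place of 0.38. In a fit of only the groups compared the call of Hes1 was lost (adjusted p = 0.129). The fall of Hey1 at day 14 was lost in 8 fits (highest adjusted p = 0.134, without ODR day 14 replicate 1). It was also lost with the shared library kept as ODR with BMP4 (adjusted p = 0.344), where the difference was unchanged at -0.90 and its SE was 0.77. The interaction of Notch3 was lost in 7 fits, among them that without ODR day 6 replicate 2 (0.70 ± 0.375).

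**Figure D2:**
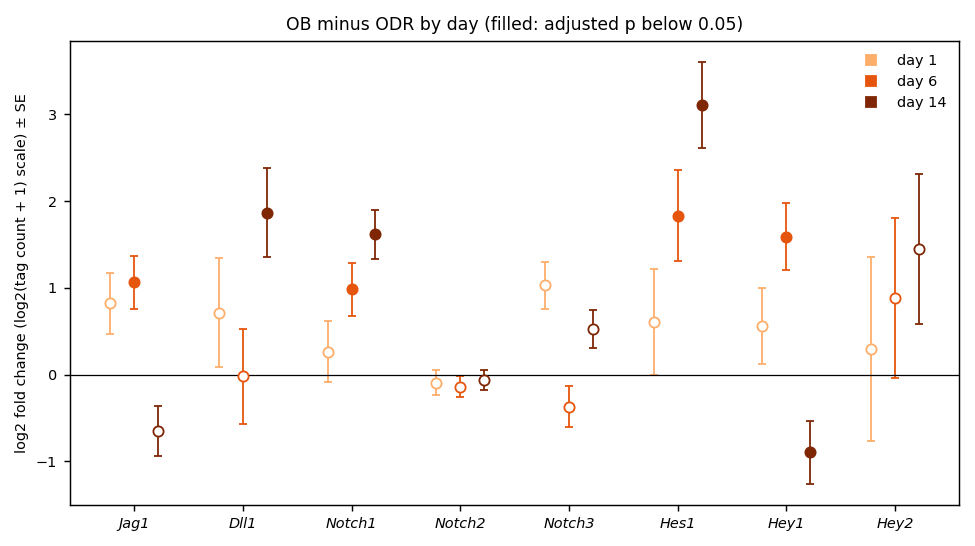
OB minus ODR for the 8 genes tested, as log2 fold change ± SE at days 1, 6 and 14 (filled points, adjusted p below 0.05). Hes1 lies at 1.83 at day 6 and 3.11 at day 14, while Jag1 and Hey1 lie above 0 at day 6 and below 0 at day 14.

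The second question was how BMP4 changed these genes at day 6. Jag1, Hes1 and Hey1 rose in both combinations, and 0 of the 8 were called lower. In ODR, 3 of the 8 rose (median 1.66), beside 11.5% of all genes called, and in OB 3 rose (median 0.76), beside 32.5% called. The median over all genes was 0.00 in ODR and -0.02 in OB. The ODR comparison has 1 library with BMP4, whose spread is assumed to be like that of the other groups.

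Jag1 was 786 in the ODR library with BMP4 against 140 and 146 without (2.45 ± 0.43, adjusted p = 0.00151). In OB it was 564 and 553 with BMP4 and 284, 316, 303 and 298 without (0.89 ± 0.30, adjusted p = 0.0317). The libraries with BMP4 were the higher ones in both combinations. Hes1 was 114 with BMP4 and 9 and 4 without in ODR (4.02 ± 0.74, adjusted p = 0.00217). In OB it was 151 and 278 with BMP4 and 32, 22, 47 and 10 without (3.03 ± 0.53, adjusted p = 0.000297). Again no library without BMP4 reached the level of those with it. Hey1 was 724 with BMP4 and 23 and 49 without in ODR (4.39 ± 0.54, adjusted p = 0.000109). In OB it was 402 and 328 with BMP4 and 100, 113, 105 and 96 without (1.80 ± 0.38, adjusted p = 0.00154).

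The remaining genes did not pass. In a fit of only the OB libraries of this comparison 6 of the 8 were called, with Notch1 (adjusted p = 0.0355) and Hey2 (0.0207) higher and Notch3 lower (0.0311), where 4448 of all genes were called in place of 4504. Hey2 was 11 with BMP4 and 0 and 4 without in ODR, and 20 and 15 with BMP4 and 5, 5, 1 and 3 without in OB (2.15 ± 0.92, adjusted p = 0.0819). Notch3 was 109 and 141 in OB with BMP4 and 212, 172, 177 and 194 without (-0.60 ± 0.24, adjusted p = 0.0601), groups that did not overlap. Notch1 differed by 0.90 ± 0.43 in ODR and 0.62 ± 0.30 in OB (adjusted p = 0.204 and 0.129). Dll1 differed by -0.59 ± 0.77 in ODR and 0.49 ± 0.55 in OB, and Notch2 by -0.05 ± 0.17 and 0.25 ± 0.12 (adjusted p = 0.714, 0.528, 0.9 and 0.131). Hes5 was listed at 0 in all libraries of these comparisons, and Heyl was 3 with BMP4 in ODR and 1 and 0 in OB. The difference between the BMP4 effects in OB and ODR was called for 0 of the 8 by limma, with 1.26% of all genes called. It was -2.58 ± 0.66 for Hey1 (adjusted p = 0.0663) and -1.56 ± 0.53 for Jag1 (adjusted p = 0.201). These were the 2 of the 8 with an unadjusted p below 0.05, beside 1509 of all 13860 genes. Both were called in a fit without the library labelled OA day 14 replicate 2, which changes only the pooled spread (adjusted p = 0.00933 for Hey1 and 0.0162 for Jag1).

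The library held under both ODR labels had 111 for Jag1, 0 for Hes1 and 20 for Hey1, like the libraries without BMP4 and unlike the other library with it. Kept as an ODR library with BMP4, it brought the difference in ODR to 1.04 ± 0.57 for Jag1 (adjusted p = 0.543), 0.60 ± 1.26 for Hes1 (adjusted p = 0.907) and 1.83 ± 0.94 for Hey1 (adjusted p = 0.524). A fit of the ODR libraries alone, with 2 against 1, called 0 of all genes. In OB, Jag1 lost its call without OB day 6 replicate 1 or 4 or without either library with BMP4 (highest adjusted p = 0.135, without the second of these). With the shared library kept as ODR with BMP4, Jag1 and Hey1 lost their calls in OB too (adjusted p = 0.186 and 0.103). No OB group holds that library, and the differences were unchanged at 0.89 and 1.80. Their SE rose to 0.50 and 0.81 through the pooled spread.

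**Figure D3:**
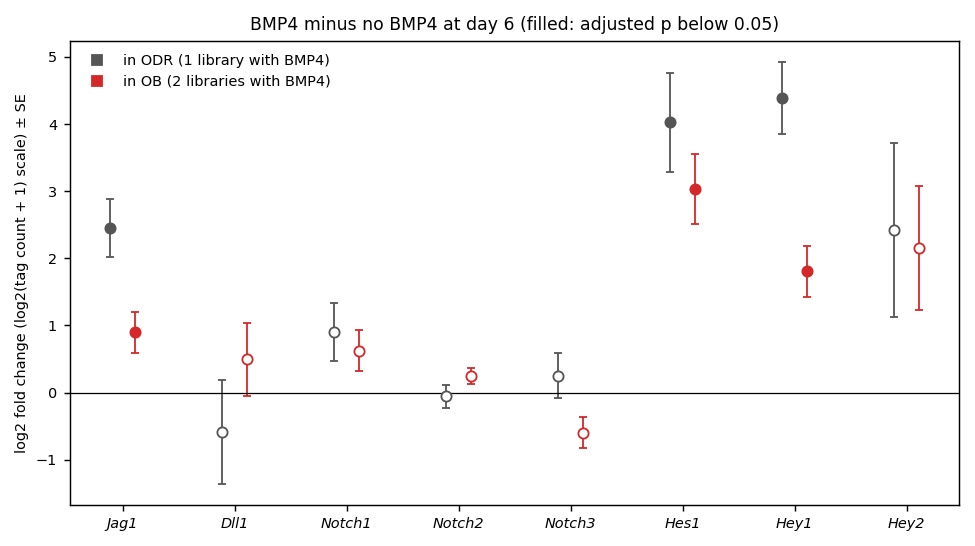
BMP4 minus no BMP4 at day 6 for the 8 genes tested, as log2 fold change ± SE in ODR (1 library with BMP4) and OB (2 libraries with BMP4); filled points have an adjusted p below 0.05. Jag1, Hes1 and Hey1 are filled in both, with Hey1 at 4.39 in ODR and 1.80 in OB.

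OA cells were compared with the same ODR libraries and with the same OB libraries, so these comparisons share their samples. Against ODR, limma called 0 of the 8 genes at each day, where 0.0649% of all genes were called at day 1, 2.22% at day 6 and 5.35% at day 14. The medians were 0.06, 0.03 and 0.33. An unadjusted p below 0.05 was found for 0, 2 and 2 of the 8, beside 714, 1904 and 2674 of all 13860 genes. The change of this difference from day 6 to day 14 was called for 0 of all 13860 genes (0%) by limma, beside 963 at an unadjusted p below 0.05. At day 14 Jag1 was 304, 786 and 282 in OA against 314, 248 and 142 in ODR (0.87, adjusted p = 0.0922), and the highest value was in replicate 2, the library that went against its label. Without it the difference was 0.39 ± 0.20 (adjusted p = 0.329). Hes1 was 26, 45 and 18 in OA against 9, 8 and 15 in ODR. These groups did not overlap (1.34 ± 0.50, adjusted p = 0.133). The 45 was in replicate 2, and without that library the Hes1 difference was 1.00 ± 0.54 (adjusted p = 0.346). Over the 8 genes the differences ran from -0.48 to 0.58 at day 1, from -0.83 to 0.72 at day 6 and from -0.59 to 1.34 at day 14.

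Against OA, OB cells had 4 genes higher and 2 lower at day 14 (median 0.97), beside 51.7% of all genes called. Jag1 fell by 1.51 ± 0.29 on the log2 scale (adjusted p = 0.000264), with 136, 150 and 140 in OB below all 3 OA libraries. Dll1 rose by 1.36 ± 0.51 (adjusted p = 0.0342), with 73, 132 and 55 in OB against 28, 58 and 18 in OA. Thus 1 OA library lay inside the OB range. Notch1 was 222, 312 and 94 in OA and rose by 1.05 ± 0.29 in OB (adjusted p = 0.0052), with the lowest OB library inside the OA range. Notch3 was 316, 470 and 308 in OA and rose by 0.90 ± 0.22 (adjusted p = 0.00245). For Hes1 the rise was 1.76 ± 0.50 (adjusted p = 0.00627). It was not called with the shared library kept under both labels or as ODR with BMP4 (adjusted p = 0.192 and 0.168). Hey1 was 50, 158 and 60 in OA and fell by 0.90 ± 0.36 in OB (adjusted p = 0.0438), a value set by OA replicate 2. Without that library the difference in Hey1 was -0.40 ± 0.31 (adjusted p = 0.298), that in Jag1 was -1.04 ± 0.20 (adjusted p = 0.000429) and Hey2 was called higher in OB (2.72 ± 0.92, adjusted p = 0.0203, against 2.04 ± 0.87 and adjusted p = 0.0575 with it). Dll1 lost its call without OA replicate 1 or 3 or OB replicate 1 or 2 (highest adjusted p = 0.158, without OA replicate 3), and without OA replicate 3 the Notch1 difference was 0.55 ± 0.19 (adjusted p = 0.0249). In a fit of only these groups, which called 4288 genes in place of 7164, Notch1, Dll1 and Hey1 were not called (adjusted p = 0.14, 0.0961 and 0.169). Notch2 differed by -0.22 ± 0.11 (adjusted p = 0.119).

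At day 1 and again at day 6, 1 of the 8 genes was called higher in OB than in OA. At day 1 this was Notch3, with 320 and 388 in OB and 135 and 182 in OA (1.16 ± 0.27, adjusted p = 0.0368), beside 1.40% of all genes called. The call was lost without any single library of those 4 (highest adjusted p = 0.3, without OA replicate 1). At day 6 it was Hey1, with 100, 113, 105 and 96 in OB and 27, 23 and 14 in OA (2.27 ± 0.34, adjusted p = 0.00049), beside 7.28% of all genes called. All 4 OB libraries were several times above the OA libraries, and this call held in all fits that left out 1 library. It was lost with the shared library kept under both labels or as ODR with BMP4 (adjusted p = 0.0649 and 0.0737). The Hey1 difference stayed at 2.27 there and its SE rose to 0.71 and 0.72. At day 6, 5 of the 8 had an unadjusted p below 0.05, beside 2877 of all 13860 genes. Jag1 and Notch1 also had groups that did not overlap there (0.34 ± 0.27 and 0.81 ± 0.27, adjusted p = 0.531 and 0.0772), and Notch1 was called in a fit of only these groups (adjusted p = 0.0182). Without OB day 6 replicate 4, with 10 the lowest for Hes1, Hes1 was called too (1.64 ± 0.43, adjusted p = 0.0314, against 1.24 ± 0.46 and 0.123 with it). The other differences among the 8 ran from -0.29 to 1.19 at day 1 and from -0.31 to 0.99 at day 6.

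The last question was how each combination changed with time, where consecutive steps share the day 6 libraries. Notch3 rose from day 6 to day 14 in all 3 combinations, and Notch1 fell from day 1 to day 6 in ODR and OA. Of the 8 genes, 3 fell in ODR from day 1 to day 6 (25.1% of all genes called) and 1 rose from day 6 to day 14 (3.95% called). In OA, 1 fell in the first step (34.6% called) and 2 rose in the second (8.14% called). In OB, 1 rose and 2 fell in the first step (33.8% called), and 4 rose and 2 fell in the second (55.0% called).

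Notch1 went from 259 and 234 at day 1 to 88 and 100 at day 6 in ODR, where it fell by 1.38 ± 0.35 (adjusted p = 0.00757). In OA it went from 318 and 234 to 114, 110 and 95 and fell by 1.36 ± 0.32 (adjusted p = 0.00326). In OB it was 322 and 272 at day 1, did not pass in the first step, and rose by 1.05 ± 0.27 from day 6 to day 14 (adjusted p = 0.00292). The level at day 14 was thus back near or above that of day 1 in OB, while in ODR it stayed below every day 1 library. Notch3 rose by 0.92 ± 0.25 in ODR (adjusted p = 0.044), by 1.39 ± 0.22 in OA (adjusted p = 0.00112) and by 1.82 ± 0.21 in OB (adjusted p = 1.16e-06). In OA it went from 135, 104 and 180 to 316, 470 and 308. In OB it went from 320 and 388 at day 1 to 212, 172, 177 and 194 at day 6 and then to 656, 746 and 607. The first of these steps was a fall of 0.90 ± 0.24 (adjusted p = 0.0065), so OB was lowest at day 6. Notch2 fell slightly in the first step, by 0.47 ± 0.14 in ODR (adjusted p = 0.0181) and 0.52 ± 0.12 in OB (adjusted p = 0.00283), from 640 and 654 in ODR and 580 and 636 in OB.

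Hes1 went from 28 and 24 to 9 and 4 in ODR and fell by 1.93 ± 0.61 (adjusted p = 0.0267). In OB it rose by 1.95 ± 0.46 from day 6 to day 14 (adjusted p = 0.00167), from the 10 to 47 of day 6 to at least 73. Hey1 in OB was 31 and 22 at day 1, rose by 1.94 ± 0.38 to day 6 (adjusted p = 0.000807) and fell by 1.30 ± 0.34 from there to day 14 (adjusted p = 0.0032). Its highest values in OB without BMP4 were thus at day 6, while both calls depended on the use of the shared library as given below. In OA it rose from 27, 23 and 14 at day 6 to 50, 158 and 60 at day 14 (1.87 ± 0.36, adjusted p = 0.00441, and 1.37 ± 0.31 with adjusted p = 0.0113 without OA day 14 replicate 2). In ODR the rise of 1.19 ± 0.40 did not pass (adjusted p = 0.111). Jag1 fell in OB from day 6 to day 14 by 1.08 ± 0.27 (adjusted p = 0.00245), and Hey2 rose by 2.33 ± 0.81 (adjusted p = 0.0207), from 5, 5, 1 and 3 to 23, 21 and 16.

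Several of these changes with time lost their calls when 1 library was left out. In ODR, Notch1 lost its call without day 1 replicate 1 or day 6 replicate 1 (highest adjusted p = 0.0547, the latter), Notch2 without day 1 replicate 1 or 2 or day 6 replicate 1 (0.186, the last), and Hes1 without day 1 replicate 1 or 2 or day 6 replicate 2 (0.213, the last). Notch3 in ODR lost its call in 11 of 27 fits (highest adjusted p = 0.335, without day 6 replicate 1). Without OB day 1 replicate 2, Notch2 and Notch3 were not called in OB from day 1 to day 6 (adjusted p = 0.0522 and 0.0911). Notch1 in OA was not called without day 1 replicate 1 (adjusted p = 0.0521), and Hey2 in OB lost its call without day 6 replicate 3 or day 14 replicate 1 or 2 (highest adjusted p = 0.063, without day 14 replicate 1). Calls were also lost with the shared library kept under both labels or as ODR with BMP4. In OB these were Hey1 from day 1 to day 6 (adjusted p = 0.0705 and 0.0767) and from there to day 14 (0.129 and 0.136). Hes1 in OB (0.115 and 0.0974) and Hey1 in OA (0.152 and 0.163) lost theirs from day 6 to day 14. No OB or OA group holds that library, and these differences were unchanged.

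Around these genes, 104 others of the pathway or of its neighbours were listed by role, and 92 were tested. Between OB and ODR at day 14, 34 of the 92 rose and 26 fell (median 0.14), against the 54.7% of all genes called. At day 6, 10 rose and 2 fell (10.5% of all genes called), and at day 1, 2 rose and 0 fell (0.880%). With BMP4, 18 rose and 7 fell in ODR (11.5%) and 31 rose and 14 fell in OB (32.5%). These counts include the 10 genes listed as BMP targets, of which 8 rose in ODR and 10 in OB. Between OA and ODR, 0 of the 92 were called at day 1 (0.0649%), 1 rose and 1 fell at day 6 (2.22%), and 4 rose and 3 fell at day 14 (5.35%). The 54.7% called between OB and ODR at day 14 stands beside each count of a single role list given below for that comparison.

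Among the target genes, Nrarp, a Notch-induced gene whose product limits the freed receptor part, was measured beside Hes1. Nrarp was 2, 0 and 0 in ODR and 84, 96 and 59 in OB at day 14 (5.78 ± 0.59, adjusted p = 3.33e-07). At day 6 it was listed at 0 in both ODR libraries and was 16, 5, 10 and 4 in OB (adjusted p = 0.00385). With BMP4 it was 34 in the ODR library, and in OB it rose to 102 and 98 (3.54 ± 0.63, adjusted p = 0.000354). In each of these comparisons the groups did not overlap. In OA at day 14 Nrarp was 11, 30 and 4 and rose against ODR by 3.09 ± 0.59 (adjusted p = 0.00517), or by 2.43 ± 0.57 without OA replicate 2 (adjusted p = 0.019). Of the 15 other target genes tested, Nrarp included, 4 rose and 7 fell between ODR and OB at day 14 (median -0.36), beside 54.7% of all genes called. Sox9, a factor of cartilage and glia, rose by 1.91 ± 0.61, while Bcl2, which blocks cell death, fell by 1.52 ± 0.20, Runx1, a blood factor, by 1.00 ± 0.17, and Cdkn1a, a cell cycle inhibitor, by 0.81 ± 0.12 (adjusted p = 0.0129, 4.57e-06, 7.1e-05 and 1.79e-05). Sox9 was not called without OB replicate 1 (adjusted p = 0.0797).

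Among 5 other ligands tested, 3 rose and 1 fell in OB at day 14, beside 54.7% of all genes called. Dll3, a ligand that acts within its own cell, was 13, 13 and 7 in ODR and 63, 60 and 48 in OB (2.31 ± 0.51, adjusted p = 0.000917). Dlk1, a non-canonical ligand, rose by 3.34 ± 0.72 and Jag2 by 1.41 ± 0.54, while Dner, a ligand of neurons, fell by 1.48 ± 0.36 (adjusted p = 0.000681, 0.0331 and 0.00186). Jag2 lost its call without ODR replicate 2 or 3 or OB replicate 1 or 3 (highest adjusted p = 0.12, without ODR replicate 2). Dll4, the ligand of arterial endothelium, followed another course. It was 2 and 2 in ODR and 44, 67, 51 and 25 in OB at day 6 (3.91 ± 0.56, adjusted p = 0.000216), but 4, 3 and 2 in OB at day 14. With BMP4 it fell in OB to 5 and 11 (-2.41 ± 0.56, adjusted p = 0.00295; 0.0652 without the first of these). Already at day 1 it was 26 and 9 in OB against 0 and 1 in ODR (3.54 ± 0.64, adjusted p = 0.0101). The receptor Notch4 was 4, 3 and 2 in ODR and 16, 12 and 12 in OB at day 14 (1.86 ± 0.58, adjusted p = 0.0114).

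The enzymes that handle the receptor did not move together. Of 9 genes of receptor cleavage tested, 0 rose and 5 fell in OB at day 14 (median -0.73), beside 54.7% of all genes called. Ncstn, the substrate-binding part of gamma-secretase, fell by 0.74 ± 0.12 (adjusted p = 3.36e-05), and Furin, which cuts the maturing receptor, by 0.73 ± 0.12 (adjusted p = 3.87e-05). Of 6 genes of receptor glycosylation, 3 rose and 2 fell. The Fringe enzymes Lfng and Mfng, which change which ligands a receptor answers to, were among the first. Lfng was 12, 5 and 8 in ODR and 96, 86 and 64 in OB at day 14 (3.20 ± 0.54, adjusted p = 7.45e-05), and with BMP4 it was 31 in ODR and rose in OB to 104 and 108 (2.65 ± 0.58, adjusted p = 0.00191). Mfng was 2, 1 and 4 in ODR and 48, 44 and 42 in OB at day 14 (3.88 ± 0.60, adjusted p = 2.9e-05), and 1 and 1 in OB with BMP4. Lfng was thus high in both settings and Mfng in OB at day 14. Pofut1, which adds the fucose that Fringe extends, fell by 0.55 ± 0.12 (adjusted p = 0.000553).

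In the nuclear complex, 3 of the 9 tested rose and 2 fell from ODR to OB at day 14 (median 0.13), beside 54.7% of all genes called. Rbpj itself was 530, 548 and 656 in ODR and 629, 654 and 612 in OB (0.13 ± 0.12, adjusted p = 0.385). These ranges overlapped, but OA was lower, at 503, 346 and 428, so that Rbpj was called higher in OB than in OA (0.58 ± 0.12, adjusted p = 0.000757). Its fall in OA against ODR (-0.45 ± 0.12, adjusted p = 0.0416) was lost without OA replicate 2 (adjusted p = 0.155) and in 19 of the 27 fits that left out 1 library (highest adjusted p = 0.171, without ODR replicate 3). With BMP4, Rbpj fell in ODR from 573 and 588 to 356 (-0.70 ± 0.19, adjusted p = 0.0206) and differed by 0.08 ± 0.13 in OB. The cofactor Snw1 rose by 0.70 ± 0.08 in OB at day 14, and the coactivators Kat2b and Maml2 fell by 1.93 ± 0.21 and 1.06 ± 0.23 (adjusted p = 2.07e-06, 6.13e-07 and 0.000809). Of 15 corepressor genes, 6 rose and 3 fell, with Hdac2 higher by 0.88 ± 0.16 (adjusted p = 0.000191) and Tle4 lower, at -0.57 ± 0.13 (adjusted p = 0.000921). Of 14 genes of ligand endocytosis and receptor turnover, 4 rose and 5 fell, among them Numbl, a Notch inhibitor, which fell by 1.09 ± 0.18 (adjusted p = 4.99e-05).

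Among the other Hes and related repressors, 1 of the 4 tested rose and 1 fell against ODR at day 14, beside 54.7% of all genes called. Hes3, which is active in early neural tissue, was 0, 2 and 0 in ODR and 12, 21 and 5 in OB (3.05 ± 0.45, adjusted p = 1.57e-05), and Bhlhe41, a repressor of the circadian clock, fell by 2.10 ± 0.27 (adjusted p = 3.47e-06). Of 4 proneural factors tested, 2 rose and 0 fell. Neurod4 was listed at 0 in all ODR libraries and was 82, 73 and 52 in OB at day 14, and Neurog2, a neuronal commitment factor, was also listed at 0 in ODR with a mean of 12 in OB. So at day 14 OB cells held more Hes1 and more of some proneural genes in the same bulk RNA. Of 10 BMP target genes, 7 rose and 0 fell in OB without BMP4 at day 14 (median 2.68), beside 54.7% of all genes called. With BMP4, 8 rose in ODR and 10 in OB (median 4.59 in OB), beside 11.5% and 32.5% of all genes called. Id3, a helix-loop-helix protein induced by BMP, was 107, 98 and 166 in ODR and 946, 789 and 658 in OB at day 14 without BMP4 (2.70 ± 0.38, adjusted p = 9.73e-06), and 1062 and 1194 in OB at day 6 with it. Gata3, a surface ectoderm and trophoblast factor, was 232 and 298 in OB with BMP4 and 7, 8 and 6 in OB at day 14.

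**Figure D4:**
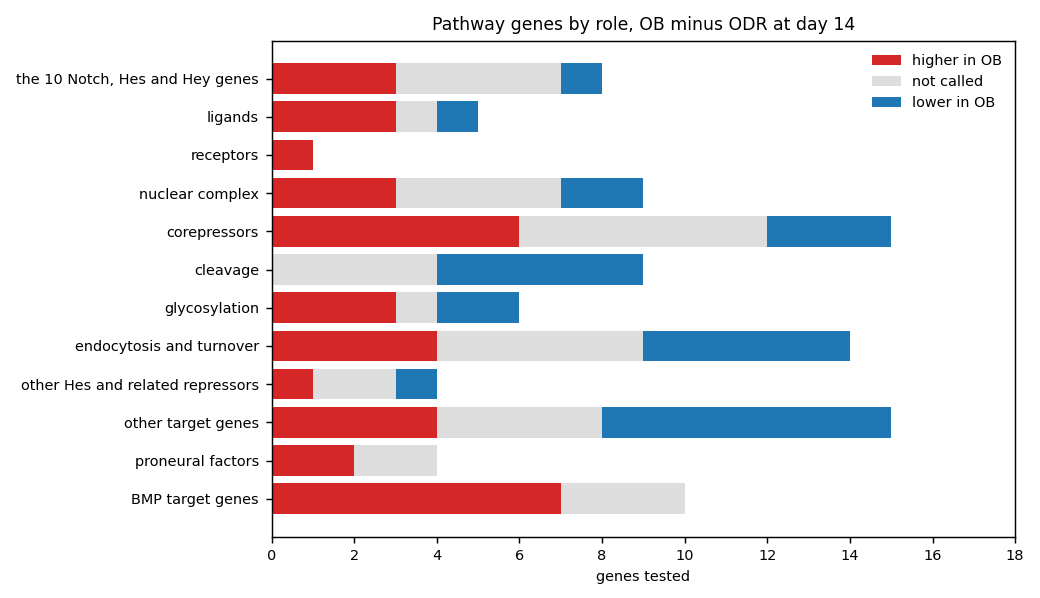
Number of genes tested in each role list that were higher (red), lower (blue) or not called (grey) in OB against ODR at day 14. The bar of receptor cleavage has 5 lower genes and 0 higher, and the bar of BMP target genes has 7 higher and 0 lower. Of all genes, 54.7% were called in this comparison.

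Markers of other cell types differed between the same groups, and their part in the results was not tested. Summed over 7 presomitic mesoderm and streak markers, of which Lfng is one, OB at day 14 held 128 to 162, against 6 to 14 in ODR, and Ripply2 was at 0. Lfng alone, already given above, had a mean of 82 in OB and 8.33 in ODR there. In OB with BMP4 the sum was 105 to 118, against 9 to 22 without, and Msgn1, Mesp2, Hes7 and Ripply2 were at 0. The mean of Lfng alone was 106 with BMP4 and 16.75 without, so nearly all of that sum was Lfng. The 7 neural progenitor markers summed to 2083 to 2666 in OB and 804 to 945 in ODR at day 6, and to 1841 to 2030 and 1246 to 1579 at day 14, with Olig2 at 0 in OB at day 14. With BMP4 this sum was 1274 to 1579 in OB, and it was 1238 in MEF, where Sox1, Sox2, Sox3 and Olig2 were at 0. One of the 7 is Nes, which is also listed among the target genes. Its mean at day 6 was 1151.5 in OB, 598 in ODR and 314.5 in OB with BMP4. Sums of 6 fibroblast markers at day 14 were 7866 to 14047 in OB and 27250 to 33844 in ODR. The 7 smooth muscle and pericyte markers, from cells in which Notch3 is known, summed to 7210 to 22923 in OB at day 1, 2667 to 3110 at day 6, 835 to 948 at day 6 with BMP4 and 1445 to 2141 at day 14. Notch3 in OB was 320 and 388, 172 to 212, 109 and 141, and 607 to 746 in the same order. Sums of 8 endothelial markers were 180 to 269 in OB and 438 to 442 in ODR at day 6, with Tie1 at 0 in both, and 112 to 144 and 274 to 348 at day 14. The 4 macrophage markers in the table summed to 282 to 488 in OB at day 6, and at day 14 to 6 to 34 in OB and 42 to 84 in ODR.

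Genes whose mean level closely resembled that of each member across the 11 groups of the fit, 1 of them a single library, were found by Pearson correlation of group means of log2(value + 1) among 9355 genes. The groups share the authors' scaling, and the values are a description only. For the ligands they were Mfap3l (r = 0.927), Prdx1 (0.922) and Megf9 (0.916) for Jag1, and Zfp428 (0.890), Suz12 (0.889) and Hnrnpf (0.881) for Dll1. For the receptors they were Dus3l (0.970) and Nhsl1 (0.943) for Notch1, Vcl (0.961), Tbrg1 (0.953) and Fam107b (0.945) for Notch2, and Ccdc8 (0.893), Sh2b1 (0.883) and Tril (0.870) for Notch3. Among the repressors they were Kansl2 (0.986), Chchd2 (0.966) and Ngfr (0.957) for Hes1, Pgm2l1 (0.965), C1ql1 (0.962) and Klhl3 (0.955) for Hey1, and Notum (0.959), Erf (0.956) and Cacna1h (0.949) for Hey2. No member was among the 3 nearest genes of another member.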

How the data were processed

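RNA of 35 mouse libraries was measured by poly-A selected sequencing. Per the submitters' processing notes, bcl2fastq, Bowtie2 2.2.5 and RSEM were used with genome build mm10. The authors deposited 1 table of normalised tag counts, a score in whole numbers per gene. The normalisation and rounding steps were not given in the sources used here. Column totals run from 4255921 to 4398785 with a common ceiling of 18690, so these are not read counts. Without depths, counting intervals were not computed.

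Values were transformed as log2(value + 1). The filter, a value of 10 or more in 2 or more libraries, passed 13860 genes. The fit used 27 libraries in 11 groups, 1 mean per group (16 residual degrees of freedom), under limma 3.58.1 and R 4.3.3, in place of the test for counts that the values do not allow. There were 20 comparisons, 3 of them interactions. Tests were two-sided, with Benjamini-Hochberg adjusted p over all genes of a comparison, and were tested on simulated data. Of each pair of identical columns, the day 6 library was left out of both groups and the day 9 library entered no test. No label says whether replicates were separate cultures, so a p-value reflects only library-to-library spread, possibly technical.

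The rule takes all 10 members in every comparison, and members that were not called are given by their range in some of them. From each role list, the rule takes the genes with the smallest adjusted p in each direction among those called, 3 for OB against ODR at day 14 and 2 for that contrast at day 6, OB against OA at day 14, OA against ODR at day 14 and BMP4 in OB, with Rbpj always. Values of genes so named are also given in other comparisons, and some genes that the rules take are not reported here. The members and all lists were chosen with earlier results of these data known. Alternatives were a pseudocount of 5, no filter, limma's trend and robust options, a fit of only the groups compared, a block for replicate number, other uses of the shared library, and leaving out each library.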

Additional observations from a re-analysis of the deposited data

Results flagged for a closer look

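The OB minus ODR difference changed between day 6 and day 14 in 3 of the 8 genes by a test of the change itself. For Jag1 it moved by -1.71 on the log2 scale, from higher to no longer higher in OB. For Hey1 it moved by -2.49, from a called rise to a called fall. With the shared library kept as ODR with BMP4, the day 14 fall of Hey1 was not called (adjusted p = 0.344). In that setting the change itself was not called for Hey1 or Jag1 (adjusted p = 0.0959 and 0.0616). For Notch3 the difference moved by 0.90, upward, with no call at either day in the fit of all groups. Its day 14 difference lay near the threshold (adjusted p = 0.0526) and was called in some of the other settings.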

How the results depend on the processing

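Of 41 calls over the 8 genes and 20 comparisons, 8 held in all 9 settings and all 27 fits without 1 library, and no called difference changed sign. With the shared day 6 library kept under both labels, calls went from 8 to 5 for OB against ODR, 0 to 1 for OA against ODR, 8 to 5 for OB against OA and 6 to 0 for BMP4. Kept as ODR with BMP4, they went to 4 for OB against ODR, 5 for OB against OA, 1 for BMP4 and from 3 to 1 for the change from day 6 to day 14. In either of these uses, OB had 2 calls in place of 3 from day 1 to day 6. From day 6 to day 14 it had 4 in place of 6. In comparisons whose groups do not hold that library the differences themselves did not change. Kept as ODR, 1 gene was called for OA against ODR and 1 for the difference between BMP4 effects. That difference went from 0 to 1 with a pseudocount of 5 or the trend and robust options and to 2 with only the groups compared. Fits of only the groups compared gave 5 for OB against OA, 1 in place of 4 for ODR over time and 1 in place of 3 for OA over time. Calls over all genes also went from 194 to 8 for OB against OA at day 1, from 1009 to 1346 at day 6, from 7164 to 4288 at day 14, from 1128 to 4 for OA and from 548 to 309 for ODR from day 6 to day 14. For BMP4 they gave 0 in ODR, where 0 of all genes were called, and 6 in OB in place of 3. The cause was not tested.

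Leaving out 1 library gave 4 to 11 calls for OB against ODR (4 without ODR day 6 replicate 1 or OB day 6 replicate 1 or 3, 5 without ODR day 6 replicate 2), 0 to 2 for OA against ODR (2 without OA day 14 replicate 3, 1 without replicate 1 or 2), 0 to 2 for the difference between BMP4 effects (2 without OA day 14 replicate 2, 1 without replicate 1), 1 to 6 for ODR over time (fewest without replicate 1 of day 1 or 6) and 2 to 7 for OA over time (7 without OA day 14 replicate 3). The only ODR library with BMP4 could not be left out. Over all pairs of groups together, deviations of libraries with the same replicate number correlated at -0.16 to 0.32 (median 0.04). Those with different numbers correlated at -0.28 to 0.22 (median -0.02). Pairing within a day or between particular groups was not tested. The replicate block gave 8 calls for OB against ODR and 5 for BMP4. With the block, Hey1 was not called at day 14 against ODR (adjusted p = 0.0517) or OA (0.0533), nor Jag1 with BMP4 in OB (0.0805), while Notch3 was called against ODR at day 14 (0.0473) and Hes1 against OA at day 6 (0.0395). The unknown depth limits what can be said of Hes5, Heyl and other genes near 0.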

Other observations

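The libraries outside the tests had 1 library per label. In the ODB library at day 9 without BMP4, Hes1 was 49, Hey2 43, Notch1 400 and Nrarp 47. The ODDR library of that day had 48 for Hes1, 13 for Hey2, 95 for Notch1 and 3 for Nrarp. Hes1 was thus near equal in the pair, and the other 3 were higher in ODB. The library held under both day 9 labels with BMP4 had 170 for Hey1, against 52 in ODDR and 55 in ODB, and 39 for Hes1. Its Kdm2b value was 239, against 18690 in ODB without BMP4, so it went against the ODB label.

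Heyl was 42 in the MEF library, above the 0 to 4 of all infected libraries, and Jag1 was 844 there. In the mESC library Notch1 was 680 and Hes1 172, while Hey1 was 1, Dll1 2 and Hes5 0.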
